A study of Mus musculus with 27 samples.

Results

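The genes described here are 10 liver genes of secreted acute-phase proteins: the serum amyloid A genes *Saa1*, *Saa2* and *Saa3*, the lipocalin gene *Lcn2*, the orosomucoid genes *Orm1*, *Orm2* and *Orm3*, and the fibrinogen chain genes *Fga*, *Fgb* and *Fgg*. They were selected by symbol from the 23191 named genes of the count table, with earlier results from these libraries in view, including the spread of the fibrinogen genes between mice and the differences between groups. Their levels and tests are therefore given as a description and are not independent evidence of a difference. Livers came from 27 male C57BL/6J mice in 4 groups. These were 7 littermate controls on chow, 6 HGFAC-KO mice on chow, 7 littermate controls on high-fat/high-sucrose diet (HF/HS) and 7 HGFAC-KO mice on HF/HS. Diets began when the mice were 8 weeks old and lasted 4 weeks. The HGFAC-KO mice carried a CRISPR/Cas9 deletion in every tissue that took out exon 2 of *Hgfac* and a portion of exon 1. *Hgfac* encodes a secreted protease, and the loss was not limited to the liver. All 27 mice were of 1 sex.

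The acute-phase response is a change in the proteins that hepatocytes secrete during infection, injury or inflammation, driven mainly by interleukin-6 acting through STAT3 and by interleukin-1 acting through NF-kB and C/EBP factors. Serum amyloid A binds high-density lipoprotein, lipocalin-2 binds the bacterial siderophores that carry iron, orosomucoid is a plasma carrier of drugs and lipids, and the 3 fibrinogen chains assemble into the clotting protein that thrombin cleaves to fibrin. The inducible serum amyloid A genes are low in healthy liver beside fibrinogen and can rise steeply, whereas fibrinogen is abundant at rest.

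In the RefSeq sequences of GRCm38.p6, the 250 bases before the annotated start were matched for 9 of the 10 genes, and *Orm1* is named only. They are printed here for 7 genes, because the genes co-varied between mice in the results that follow and because the near-copies *Saa1* and *Saa2* can share reads. Each sequence reads 5′ to 3′ on the strand of its gene, and bases that overlap an untranslated region in GENCODE were left off. Capitals mark matches, on either strand, to TTGCNNAA (the C/EBP motif), TTCNNNGAA (the STAT motif) or CTGGGAA (the interleukin-6 response element). No 2 matches overlapped. The positions are chr7:46742981-46743230, minus strand, for *Saa1*, chr7:46751583-46751789, plus strand, for *Saa2*, chr2:32387798-32387989, minus strand, for *Lcn2*, chr4:63362199-63362448, plus strand, for *Orm2*, chr3:83025903-83026075, plus strand, for *Fga*, chr3:83049864-83050113, minus strand, for *Fgb*, and chr3:83007474-83007723, plus strand, for *Fgg*.
Saa1: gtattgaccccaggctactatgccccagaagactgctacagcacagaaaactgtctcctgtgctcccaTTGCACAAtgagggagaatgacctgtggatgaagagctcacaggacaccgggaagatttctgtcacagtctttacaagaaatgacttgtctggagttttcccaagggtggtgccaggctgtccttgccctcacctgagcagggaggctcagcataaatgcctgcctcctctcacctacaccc
Saa2: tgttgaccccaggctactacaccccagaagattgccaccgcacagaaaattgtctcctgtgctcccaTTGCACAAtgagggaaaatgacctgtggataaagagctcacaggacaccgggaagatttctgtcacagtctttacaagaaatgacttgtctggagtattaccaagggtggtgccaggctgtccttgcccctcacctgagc
Lcn2: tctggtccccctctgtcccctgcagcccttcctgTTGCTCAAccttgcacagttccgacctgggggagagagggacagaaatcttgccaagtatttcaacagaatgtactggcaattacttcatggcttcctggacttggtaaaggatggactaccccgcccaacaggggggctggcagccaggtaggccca
Orm2: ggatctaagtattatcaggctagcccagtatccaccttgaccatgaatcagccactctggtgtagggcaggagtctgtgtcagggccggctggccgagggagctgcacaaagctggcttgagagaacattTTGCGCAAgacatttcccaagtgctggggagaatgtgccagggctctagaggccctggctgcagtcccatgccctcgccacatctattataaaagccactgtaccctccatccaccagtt
Fga: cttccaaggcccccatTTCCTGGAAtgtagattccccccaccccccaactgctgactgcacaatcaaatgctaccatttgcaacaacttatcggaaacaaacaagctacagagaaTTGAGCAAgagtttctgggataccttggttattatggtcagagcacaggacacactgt
Fgb: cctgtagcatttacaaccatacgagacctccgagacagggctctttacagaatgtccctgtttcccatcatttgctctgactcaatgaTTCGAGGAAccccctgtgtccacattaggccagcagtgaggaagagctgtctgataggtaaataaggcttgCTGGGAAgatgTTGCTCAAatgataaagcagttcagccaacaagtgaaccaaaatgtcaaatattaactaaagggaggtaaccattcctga
Fgg: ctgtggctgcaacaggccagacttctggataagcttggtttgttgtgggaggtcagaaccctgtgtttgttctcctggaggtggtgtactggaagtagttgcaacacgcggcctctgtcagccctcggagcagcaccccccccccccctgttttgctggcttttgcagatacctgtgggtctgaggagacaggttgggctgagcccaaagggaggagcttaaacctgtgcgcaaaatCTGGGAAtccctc

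The C/EBP motif was present in 8 of the 9 matched promoters, all but that of *Fgg*, and in 9.56% of 32851 promoters of the same length. The STAT motif was present before *Fga* and *Fgb* (2 of 9) and in 7.02% of all promoters. The interleukin-6 response element was present before *Fgb* and *Fgg* (2 of 9) and in 9.10% of all promoters. The NF-kB motif matched 0 of the 9 windows and 7.25% of all promoters. A match is a run of letters in the window and was not tested as a bound site. Over 250 bases, the promoters of *Saa1* and *Saa2* were 94.8% identical and those of *Orm2* and *Orm3* 85.5%. The fibrinogen promoters were 41.6% to 46.5% identical to each other.

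In the GENCODE annotation of GRCm38, the fibrinogen genes occupy 1 stretch of chromosome 3, in the order *Fgg*, *Fga*, *Fgb*, from 83007724 to 83049863, and *Orm1*, *Orm3* and *Orm2* on chromosome 4 from 63344560 to 63365878. *Saa3*, *Saa1* and *Saa2* lie on chromosome 7 from 46711998 to 46754313, and *Lcn2* lies on chromosome 2 from 32384633 to 32388252. The authors' treatment of reads that fit more than 1 copy is not given in the sources used here, so how counts divide between *Saa1* and *Saa2*, or between the orosomucoid copies, is uncertain.

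Total counts per library ran from 36056177 to 57298657 (median 47239271). *Hgfac* averaged 201 ± 12.8 CPM (counts scaled to library size; SD, n = 7) in controls on chow and 75.2 ± 8.27 (n = 6) in HGFAC-KO mice on chow. On HF/HS the means were 271 ± 15.5 (n = 7) and 91.8 ± 7.94 (n = 7). Every mouse labelled HGFAC-KO was below every control on its diet. The 6 hepatocyte markers summed to between 75201.5 and 112760 CPM per library.

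A pair of libraries stood apart in these genes. HGFAC-KO chow replicate 4 and control HF/HS replicate 7 were each the highest of their group for all 10 members. Over 13932 genes, replicate 4 was the highest of the HGFAC-KO chow group for 14% and replicate 7 the highest of the control HF/HS group for 23.5%. Their depths were 41028710 counts, the lowest of the HGFAC-KO chow group (median 46085367), and 47148784 counts (median of the control HF/HS group 43782801). The labels set neither mouse apart, so each comparison is given with and without them. Because they sit in different groups, a comparison moves in opposite directions depending on which side holds the high mouse.

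Compared per kilobase of the longest principal transcript, fibrinogen mRNA was the most abundant of the members. In controls on chow the median level was 1185 CPM per kb for *Fga*, 1164 for *Fgg* and 706 for *Fgb*. *Orm1* followed at 527 CPM per kb. *Saa1* was at 60.7 CPM per kb, *Saa2* at 18.2 and *Orm2* at 17.0, and the lowest levels were those of *Saa3* (8.99), *Lcn2* (4.02) and *Orm3* (2.31). Summed over the 10 genes, the share of named counts was 0.752% in the lowest library and 1.97% in the highest.

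*Saa1*, a liver-secreted serum amyloid A, varied more between mice of a group than between group medians. On chow, *Saa1* ran from 29.2 to 246 CPM in controls (median 37.0), and the HGFAC-KO mice ranged from 20.1 to 1292 CPM (median 41.4). On HF/HS, *Saa1* ran from 16.2 to 1240 CPM in controls (median 35.8), and the HGFAC-KO mice ranged from 22.9 to 181 CPM (median 29.9). The 4 medians lay close together and every group held at least 1 mouse far above the others. In the control HF/HS group, replicate 1 stood apart as well, at 127 CPM. Of the 27 mice, 22 lay between 16.2 and 48.6 CPM and 5 between 127 and 1292 CPM, so the groups overlapped over nearly their whole range. The 5 were HGFAC-KO chow replicate 4 and control HF/HS replicates 7 and 1, control chow replicate 3 and HGFAC-KO HF/HS replicate 2.

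**Figure D1:**
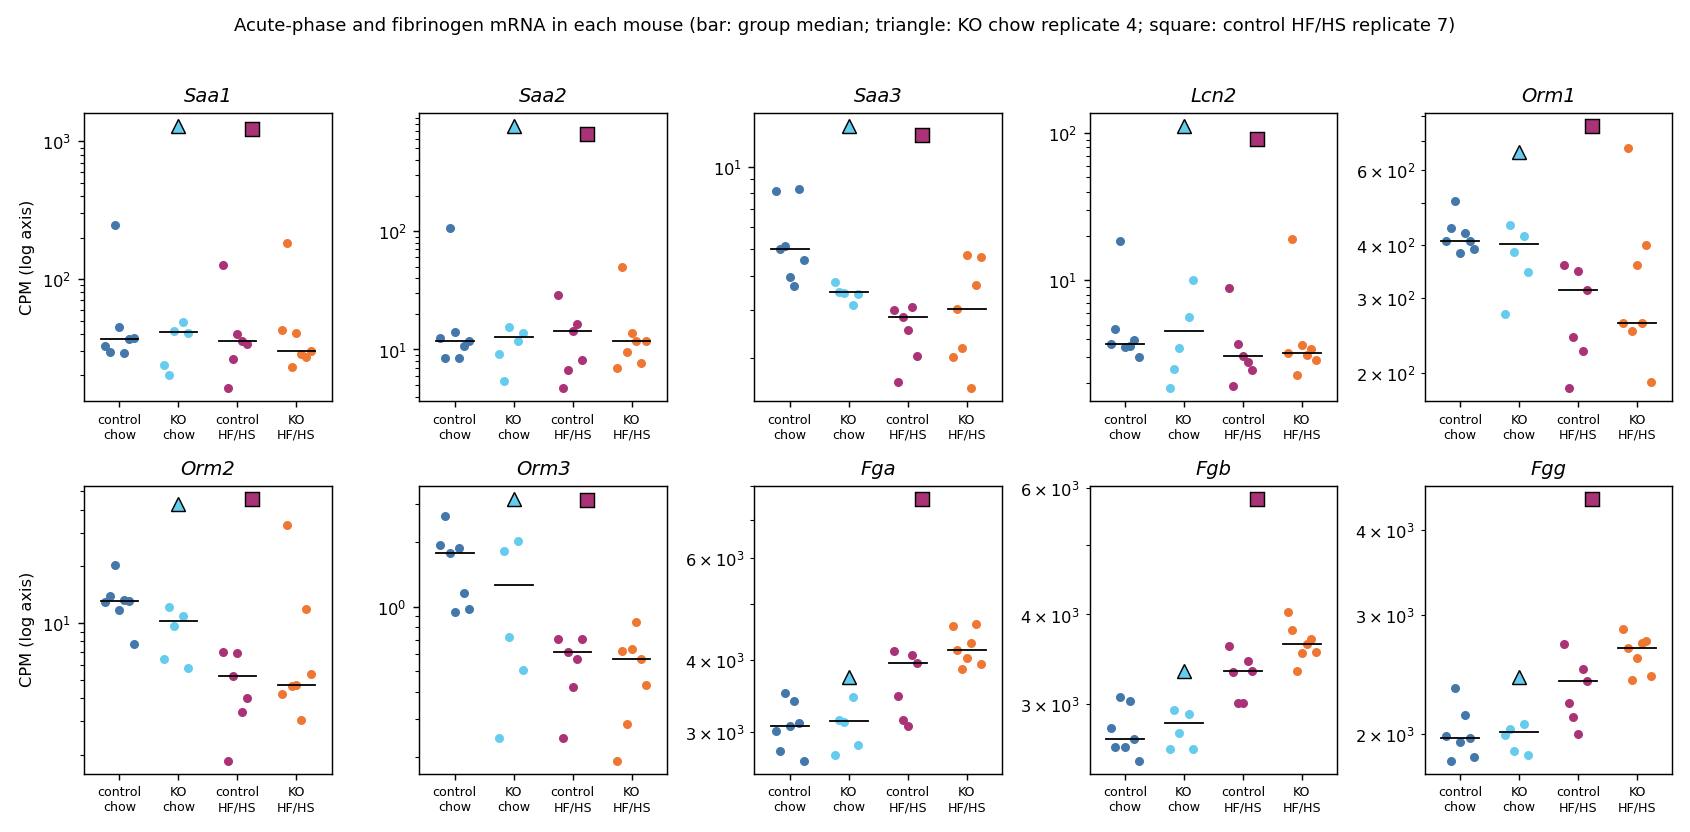
Level of each of the 10 genes in CPM (log axis) in the 27 mice, by group, with 1 point per mouse, a bar at the group median, a triangle for HGFAC-KO chow replicate 4 and a square for control HF/HS replicate 7. These sit at the top of their groups in every panel, more than 30-fold above the median of the other mice for Saa1.

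*Saa2*, the near-copy of *Saa1*, showed the same mice at the top. It ran from 8.48 to 106 CPM in controls on chow (median 11.9), with 5.43 to 772 CPM among HGFAC-KO mice on chow (median 12.9). It ran from 4.73 to 660 CPM in controls on HF/HS (median 14.3) and, among HGFAC-KO mice on HF/HS, 6.97 to 49.9 CPM (median 11.7). The highest mouse exceeded the median of the others in its group 9.40-fold, 65.1-fold, 58.9-fold and 4.72-fold in these 4 groups, against 7.07-fold, 31.7-fold, 35.7-fold and 6.21-fold for *Saa1*. The ratio of *Saa2* to *Saa1* counts had a median of 0.320 over the 27 mice. It was 0.598 in HGFAC-KO chow replicate 4, the highest ratio of all, and 0.532 in control HF/HS replicate 7. The share of counts from serum amyloid A genes was 0.203% and 0.182% in these libraries, and lay between 0.0023% and 0.0353% in the other 25.

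*Lcn2* was highest in the same 4 top mice, and control HF/HS replicate 1, also high in *Saa1*, was at 8.87 CPM. It ran from 2.99 to 18.5 CPM in controls on chow (median 3.67), with 1.85 to 112 CPM among HGFAC-KO mice on chow (median 4.53). It ran from 1.92 to 91.7 CPM in controls on HF/HS (median 3.06) and, among HGFAC-KO mice on HF/HS, 2.28 to 19.0 CPM (median 3.22). The top mouse of each group was the top mouse for *Saa1*. *Saa3*, a serum amyloid A gene also made by macrophages, had a narrower range. It ran from 3.66 to 8.28 CPM in controls on chow, 3.14 to 14.1 CPM in HGFAC-KO mice on chow, 1.63 to 13.1 CPM in controls on HF/HS and 1.55 to 4.77 CPM in HGFAC-KO mice on HF/HS. Its highest mice were HGFAC-KO chow replicate 4 and control HF/HS replicate 7, but in the other 2 groups they were not the mice with the highest *Saa1*.

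Among the orosomucoid genes, *Orm1* was the main transcript and the steadiest. It ran from 384 to 507 CPM in controls on chow (median 409), with 276 to 659 CPM among HGFAC-KO mice on chow (median 402). It ran from 185 to 758 CPM in controls on HF/HS (median 313) and, among HGFAC-KO mice on HF/HS, 191 to 673 CPM (median 262). The medians on HF/HS were below those on chow, while the highest mouse of each HF/HS group was above the highest of each chow group. *Orm2* had medians of 13.2 and 10.3 CPM on chow and 5.22 and 4.66 CPM on HF/HS, controls first, and reached 42.9 CPM in HGFAC-KO chow replicate 4, 45.7 CPM in control HF/HS replicate 7 and 33.3 CPM in HGFAC-KO HF/HS replicate 2. *Orm3* was the lowest, between 0.192 and 3.18 CPM over all mice, where counting error is large. *Orm2* counts were 0.0251 of *Orm1* counts at the median of 27 mice, and 0.0652, 0.0602 and 0.0495 in the 3 mice just named, so these mice held a larger share of *Orm2*.

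Fibrinogen mRNA was abundant and steady by comparison. *Fga*, the gene of the alpha chain, ran from 2673 to 3500 CPM in controls on chow (median 3066), with 2733 to 3740 CPM among HGFAC-KO mice on chow (median 3133). On HF/HS, *Fga* ran from 3074 to 7613 CPM in controls (median 3952), with 3855 to 4610 CPM among HGFAC-KO mice (median 4158). The HGFAC-KO groups on the 2 diets did not overlap for *Fga*, and those of the controls did. *Fgb*, the beta chain, had medians of 2689, 2825, 3335 and 3644 CPM in the same order of groups, and *Fgg*, the gamma chain, 1972, 2015, 2398 and 2678 CPM. The ratio of *Fga* to *Fgb* counts stayed between 1.02 and 1.31 (coefficient of variation 5.85%) and that of *Fgg* to *Fgb* between 0.665 and 0.768 (3.82%) in all 27 mice, the high ones included.

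The spread within groups was set beside that of genes of like level (within 1 log2 unit of mean). The SD of log2 CPM of *Saa1* was 1.09, 2.22, 2.11 and 1.01 in controls on chow, HGFAC-KO mice on chow, controls on HF/HS and HGFAC-KO mice on HF/HS. For *Saa1*, *Saa2* and *Lcn2* the SD was above that of 99.4% to 100% of such genes in each of the 4 groups. For the fibrinogen genes it was above that of 12% to 90%, the highest being *Fga* in controls on HF/HS.

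On chow, HGFAC-KO mice against controls showed no called member. At an adjusted p of 0.05 (edgeR quasi-likelihood test, Benjamini-Hochberg adjustment over all genes tested), 0 of 10 members were called, beside 0.00737% of 13571 genes, which is 1 gene. At an unadjusted p under 0.05 the count was 0, and DESeq2 called 0. *Saa1* was 1.91 higher in HGFAC-KO mice on the log2 scale (SE 1.11, edgeR Benjamini-Hochberg adjusted p = 0.82), *Saa2* 2.50 (SE 1.31, adjusted p = 0.81) and *Lcn2* 1.95 (SE 0.99, adjusted p = 0.801). Without HGFAC-KO chow replicate 4 these values turned to -0.89, -1.13 and -0.30, and 0 members were called beside 0.00733% of genes. Control chow replicate 3 was then the highest mouse for *Saa1*, at 246 CPM. The other controls lay between 29.2 and 44.7 CPM and the other HGFAC-KO mice between 20.1 and 48.6 CPM. Members higher in HGFAC-KO mice then numbered 1 of 10 (median -0.43), against 7 of 10 with all mice (median 0.05). *Saa3* (-0.67) and *Orm2* (-0.55) had an unadjusted p under 0.05, as did 976 of 13643 genes. Of 21 other positive acute-phase genes, 13 were higher in HGFAC-KO mice without that mouse and 19 with it (medians 0.03 and 0.20). Of 11 Kupffer cell and macrophage markers, 0 were higher with or without it (medians -0.21 and -0.28), and those with an unadjusted p under 0.05 went from 1 to 5. The part of those cells in the members' values was not tested. The groups overlapped for all 10 members, whereas 0.125% of genes had groups that did not overlap. With all mice, HGFAC-KO chow replicate 4 set the direction of *Saa1*, *Saa2* and *Lcn2*.

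On HF/HS the same 3 genes pointed the other way. No member was called by edgeR with Benjamini-Hochberg adjustment (0 of 10, beside 0.0148% of 13544 genes), 1 had an unadjusted p under 0.05, and DESeq2 called 0. *Saa1* differed by -2.02 (SE 1.05, edgeR Benjamini-Hochberg adjusted p = 0.562), *Saa2* by -2.73 (SE 1.20, adjusted p = 0.494) and *Lcn2* by -1.61 (SE 0.98, adjusted p = 0.621), HGFAC-KO minus control. Without control HF/HS replicate 7 they differed by 0.20, 0.26 and 0.49, and 0 members were called beside 0.0367% of genes. Members higher in HGFAC-KO mice then numbered 9 of 10, against 3 of 10 with all mice, and their median went from -0.25 to 0.24. The 3 with an unadjusted p under 0.05 were *Fga* (0.21), *Fgb* (0.15) and *Fgg* (0.18), which were at 0.00 to 0.01 with all mice. Over all genes, 1707 of 13608 passed that unadjusted threshold. Of 21 other positive acute-phase genes, 18 were higher in HGFAC-KO mice without that mouse and 12 with it (medians 0.29 and 0.04). The 11 Kupffer cell and macrophage markers moved the same way, 11 higher without that mouse (median 0.16) and 7 with it (median 0.04), and their part in these values was not tested. The groups overlapped for all 10 members, beside 0.0812% of genes without overlap. *Orm3* differed by -0.83 with all mice and by -0.08 without that mouse.

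The interaction of genotype and diet, over all 27 mice, was -3.93 for *Saa1* (SE 1.55), -5.22 for *Saa2* (SE 1.80) and -3.56 for *Lcn2* (SE 1.43) on the log2 scale. With edgeR, 3 members had an unadjusted p under 0.05 and 0 of 10 were called after Benjamini-Hochberg adjustment (adjusted p = 0.984 for these 3), beside 0% of 13932 genes, of which 506 had an unadjusted p under 0.05, and DESeq2 called 0 members. Without both high libraries the values were 1.09, 1.40 and 0.80, and 0 members were called beside 0% of genes. All 10 members then had an interaction above 0 (median 0.66), against 0 of 10 with all mice (median -0.28). *Saa3* (1.00), *Orm2* (1.58) and *Fgg* (0.21) had an unadjusted p under 0.05, as did 778 of 13970 genes. The Kupffer cell and macrophage markers were above 0 for 11 of 11 in both fits, with the median going from 0.22 to 0.42 and the number at an unadjusted p under 0.05 from 0 to 10. Whether those cells had a part in the interactions was not tested. The interactions of *Saa1*, *Saa2* and *Lcn2* stayed below 0 whichever single mouse was left out (*Saa1* from -4.82 to -1.13). They were above 0 only in the fit without both high libraries, among the fits given here for them. That fit still held control chow replicate 3 and HGFAC-KO HF/HS replicate 2, also high in *Saa1*. The size and sign of these interactions thus rested largely on 2 mice in opposite corners of the design.

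**Figure D2:**
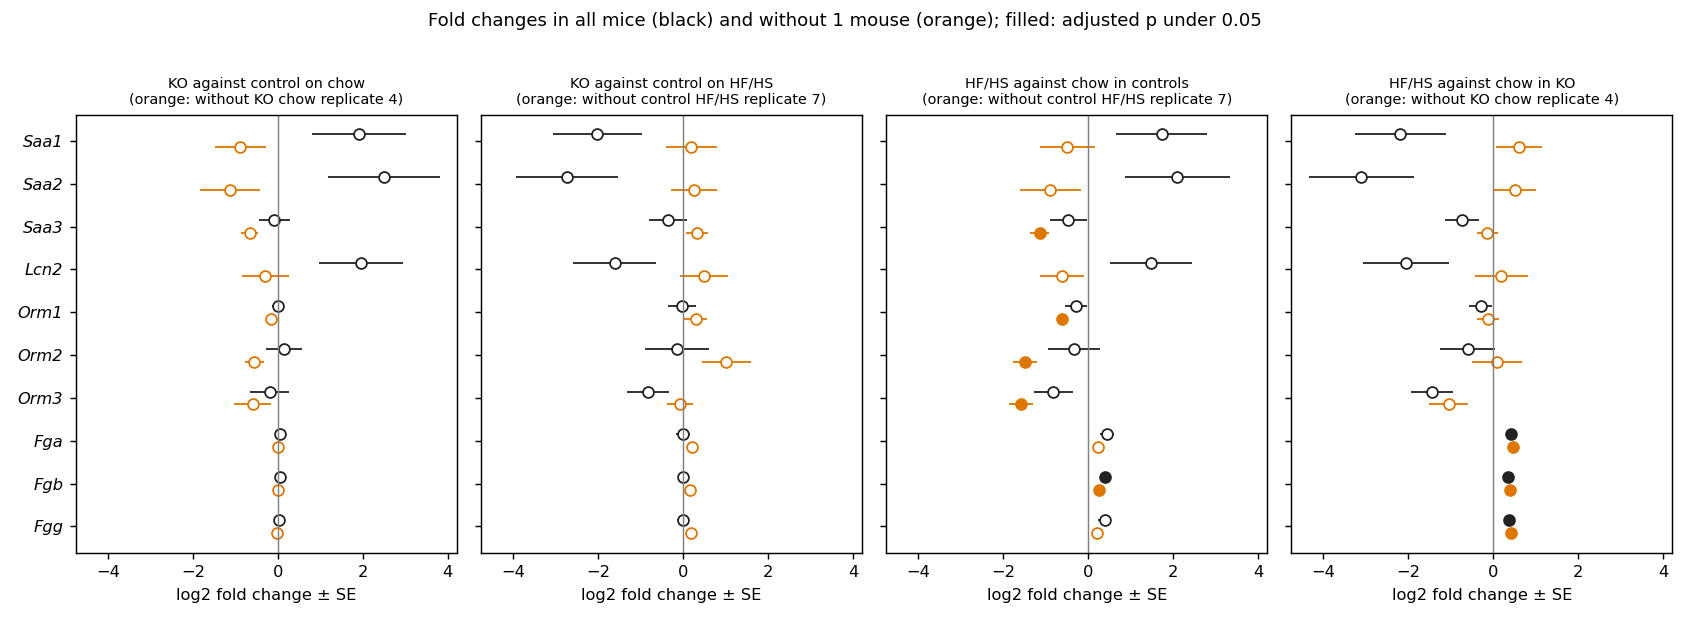
Log2 fold change of each member in the 4 comparisons of groups (points, with bars of 1 SE from edgeR), with all mice (black) and without the high library of that comparison (orange). Filled points have a Benjamini-Hochberg adjusted p under 0.05, and the Saa1, Saa2 and Lcn2 values change sign without that library in every comparison, and the fibrinogen values on diet stay above 0.

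All 3 fibrinogen genes rose on HF/HS in HGFAC-KO mice. *Fga* averaged 4208 ± 300.1 CPM (SD, n = 7) on HF/HS and 3172 ± 375 CPM (n = 6) on chow, a rise of 0.41 on the log2 scale (SE 0.08, edgeR Benjamini-Hochberg adjusted p = 0.0066). *Fgb* rose by 0.36 (SE 0.07, edgeR Benjamini-Hochberg adjusted p = 0.00707) and *Fgg* by 0.36 (SE 0.07, adjusted p = 0.00691). These 3 of 10 members were called, beside 5.89% of 13613 genes. They are chains of 1 protein with nearly constant ratios, and they are not 3 separate observations. Groups did not overlap for *Fga* and *Fgb* (2 of 10 members, beside 3.01% of genes). All 3 genes stayed called when each of the 13 mice was left out in turn (highest edgeR Benjamini-Hochberg adjusted p = 0.0245). In 1 fit of all 27 mice, which shares the spread of all groups, only *Fgb* stayed called, and *Fga* and *Fgg* had edgeR Benjamini-Hochberg adjusted p of 0.0718 and 0.0638. Without HGFAC-KO chow replicate 4 the rises were 0.46, 0.40 and 0.42, and the background was 4.42% of genes.

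The Kupffer cell and macrophage markers moved with this comparison. Of 11 such markers, 10 were higher on HF/HS in HGFAC-KO mice, and edgeR called 7 of the 11 as higher, beside 5.89% of all genes. At an unadjusted p under 0.05 the count was 10, and DESeq2 called 9. Among the 7, *Clec4f* rose by 0.65 and *C1qa* by 0.49 on the log2 scale (edgeR Benjamini-Hochberg adjusted p = 0.00372 and 0.00335). The summed level of the 11 ran from 190 to 289 CPM on chow and from 265 to 414 CPM on HF/HS. In controls, edgeR called 0 of the 11 on diet (3 at an unadjusted p under 0.05, and 1 by DESeq2). None of the 11 was at 0 in any group. Their part in the fibrinogen values was not tested. In bulk liver, a change in the number of cells of a type cannot be told apart from a change in RNA per cell.

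In controls, how many fibrinogen genes were called on diet depended on the fit. *Fgb* averaged 3649 ± 970 CPM (SD, n = 7) on HF/HS and 2759 ± 218 CPM (n = 7) on chow, a rise of 0.40 on the log2 scale (SE 0.12, edgeR Benjamini-Hochberg adjusted p = 0.0473). It was the 1 of 10 members called, beside 10.5% of 13525 genes. It stayed called in 4 of the 14 fits that left out 1 mouse, with edgeR Benjamini-Hochberg adjusted p between 0.0187 and 0.0928. The values of *Fga* and *Fgg* were 0.45 (SE 0.17) and 0.38 (SE 0.14), neither called (edgeR Benjamini-Hochberg adjusted p = 0.102 and 0.104). The fit of all 27 mice called all 3 genes, DESeq2 called *Fga* and *Fgb*, and edgeR with no filter or with the replicate number as a block called 0 of them. The groups overlapped for all 10 members, beside 3.53% of genes without overlap. The diet values of controls and HGFAC-KO mice, 0.45 and 0.41 for *Fga*, differed by -0.05 in the interaction (SE 0.20), so a difference in the fibrinogen response between genotypes was not found with this spread. Without control HF/HS replicate 7 that difference was 0.16 (SE 0.12), and without both high libraries 0.22 (SE 0.12). Without control HF/HS replicate 7 the diet values in controls were 0.24 for *Fga* and 0.21 for *Fgg*, neither called (edgeR Benjamini-Hochberg adjusted p = 0.0823 and 0.0911).

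Leaving out control HF/HS replicate 7 changed what the controls showed on diet. *Fgb* was then higher on HF/HS by 0.25 (edgeR Benjamini-Hochberg adjusted p = 0.0187), and *Orm1*, *Orm2*, *Orm3* and *Saa3* were lower by -0.60, -1.49, -1.57 and -1.14 on the log2 scale (adjusted p = 0.0108, 0.00462, 0.00231 and 0.00364). That made 5 of 10 members called, beside 10.5% of 13592 genes. With all mice, the same 4 genes differed by -0.29, -0.33, -0.82 and -0.46, and none was called by edgeR (Benjamini-Hochberg adjusted p between 0.283 and 0.785), while DESeq2 with all mice called *Orm2* lower (-1.29, adjusted p = 0.000923). In HGFAC-KO mice, *Orm3* differed by -1.45 with all mice (edgeR Benjamini-Hochberg adjusted p = 0.0989) and *Orm2* by -0.61 (adjusted p = 0.62). *Orm3* was called lower there by DESeq2 (-1.46, adjusted p = 0.0296), by edgeR with the replicate number as a block (-1.23, Benjamini-Hochberg adjusted p = 0.0494) and by edgeR without HGFAC-KO chow replicate 1 (-1.68, adjusted p = 0.0344). Every mouse was left out in turn, and control HF/HS replicate 7 is singled out here because its levels stood apart.

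*Saa1*, *Saa2* and *Lcn2* were not called on diet in either genotype. In controls they were 1.73, 2.10 and 1.49 higher on HF/HS with all mice and -0.49, -0.89 and -0.61 without control HF/HS replicate 7. In HGFAC-KO mice they differed by -2.19, -3.11 and -2.05 with all mice and by 0.61, 0.51 and 0.19 without HGFAC-KO chow replicate 4. The SE was between 0.96 and 1.24 on the log2 scale with all mice and between 0.50 and 0.72 without the high library, so even changes of several fold could not be resolved. The 4 comparisons share groups in pairs and are not independent of each other.

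The members varied together between mice. Each mouse was expressed as its deviation from the mean log2 CPM of its group, and Pearson's r was taken over the 27 mice for the 45 pairs of members. All 45 values were above 0, from 0.58 to 0.98, with a median of 0.72 (median Spearman's rho 0.56). Among *Saa1*, *Saa2* and *Lcn2*, r was 0.95 to 0.98, and among the fibrinogen genes it was 0.97 in all 3 pairs. Between these blocks r was 0.69 to 0.78. The orosomucoid genes had r between 0.69 and 0.92 among themselves, the highest being *Orm1* with *Orm2*. Without subtraction of group means the median r was 0.55, the lowest was -0.02 and 44 of 45 pairs were above 0. The median between fibrinogen and orosomucoid genes was then 0.14, against 0.67 with the subtraction.

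**Figure D3:**
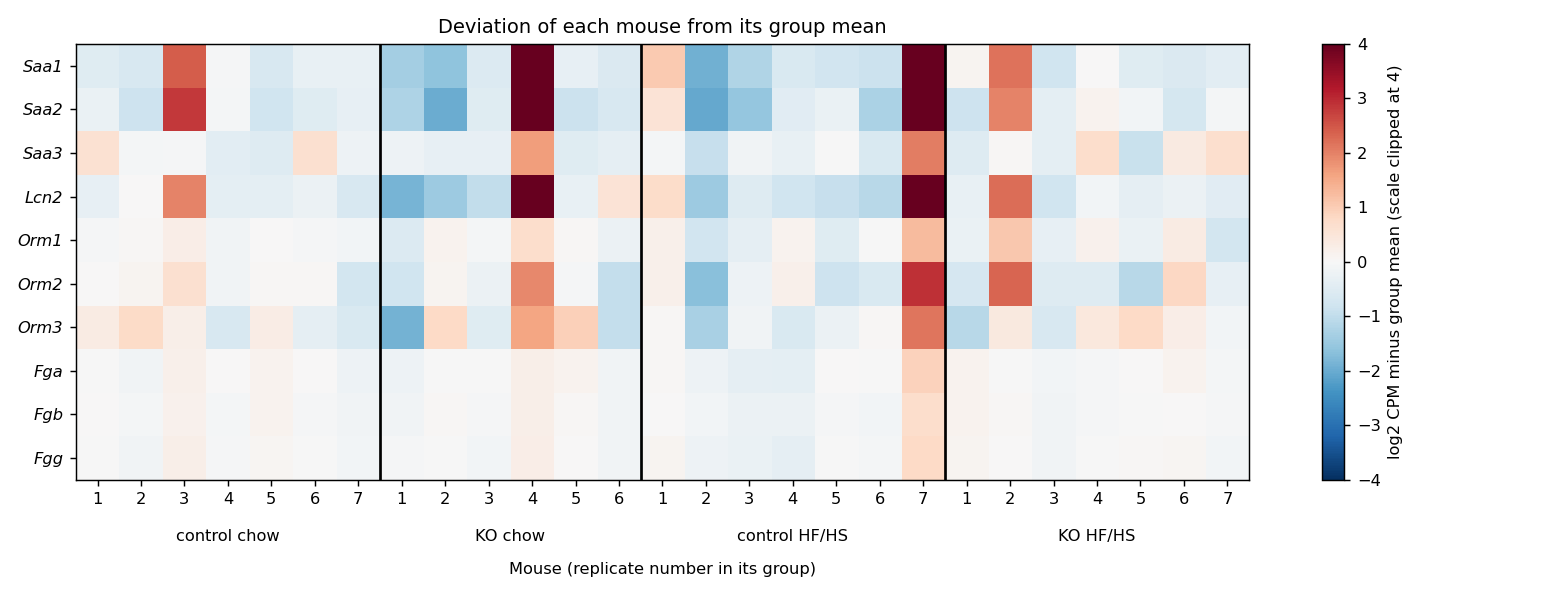
Deviation of each mouse from its group mean in log2 CPM (colour, clipped at 4) for the 10 genes (rows) and 27 mice (columns, by group and replicate number). The columns of HGFAC-KO chow replicate 4 and control HF/HS replicate 7 are above 0 in every row, and control chow replicate 3 and HGFAC-KO HF/HS replicate 2 are high mainly in Saa1, Saa2, Lcn2 and, for the latter, Orm2.

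Much of the shared variation lay in the same 2 mice. Without HGFAC-KO chow replicate 4 and control HF/HS replicate 7 (25 mice), the median r fell to 0.36, with a range from -0.11 to 0.93 and 42 of 45 pairs above 0. Within *Saa1*, *Saa2* and *Lcn2* it was still 0.82 to 0.93, and within fibrinogen 0.88 to 0.89. Between these blocks it was 0.28 to 0.51. *Orm1* with *Orm2* remained at 0.85. *Saa3* was the member that separated, with r between -0.11 and 0.32 to each of the other 9 genes.

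**Figure D4:**
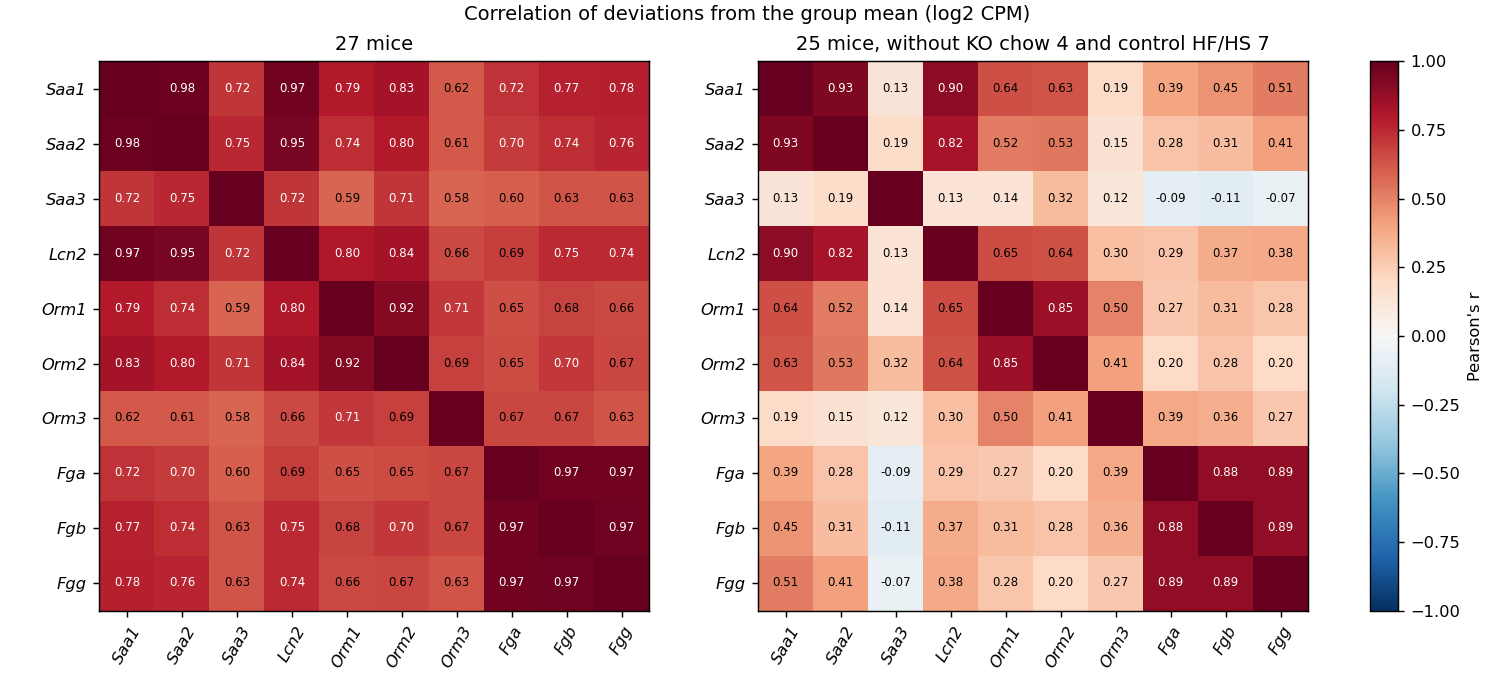
Pearson's r between deviations from the group mean (log2 CPM) for each pair of the 10 genes, over 27 mice (left) and over the 25 mice without the pair of high libraries (right). The Saa1, Saa2 and Lcn2 block and the fibrinogen block keep r above 0.8 on the right, and most other pairs are much lower.

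Within single groups the median r over the 45 pairs was 0.60 in controls on chow (7 mice), 0.83 in HGFAC-KO mice on chow (6), 0.93 in controls on HF/HS (7) and 0.27 in HGFAC-KO mice on HF/HS (7). The latter group had fibrinogen levels that did not follow its mouse with high *Saa1*. There, HGFAC-KO HF/HS replicate 2 was 6.21-fold above the median of the others for *Saa1* and 7.17-fold for *Orm2*, and the highest *Fga* and *Fgb* were in replicates 6 and 1. It was the highest of its group for 5 of 10 members, beside 17.4% of all genes. Control chow replicate 3 was the highest for 8 of 10 members, beside 16.5%, with *Fga* 1.15-fold above the median of the others. In control HF/HS replicate 7 *Fga*, *Fgb* and *Fgg* were 2.05-fold, 1.74-fold and 1.92-fold above the median of the other mice, and in HGFAC-KO chow replicate 4 all 3 were 1.20-fold to 1.22-fold above it, although the 2 mice had nearly equal *Saa1*. All the points share the same tissue and normalization, and the correlations are a description of these libraries.

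**Figure D5:**
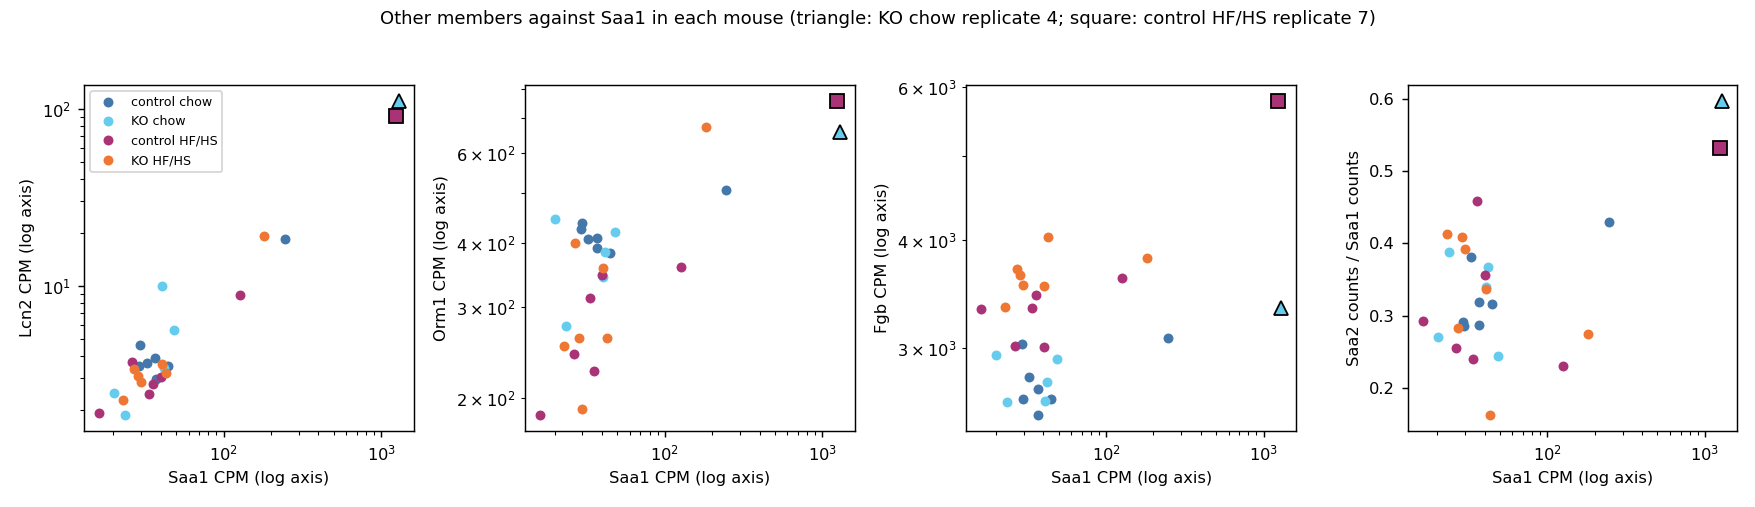
Lcn2, Orm1 and Fgb levels in CPM (log axes) and the ratio of Saa2 to Saa1 counts (linear axis) against Saa1 in CPM (log axis), 1 point per mouse, coloured by group, with a triangle for HGFAC-KO chow replicate 4 and a square for control HF/HS replicate 7. The mice with the highest Saa1, 1292 and 1240 CPM, also have the highest Lcn2 and the highest ratios, whereas Fgb is 3333 CPM in the first and 5791 CPM in the second.

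Other positive acute-phase proteins were high in the same mice. Of 22 such genes, 22 were the highest of their group in control HF/HS replicate 7 and 19 in HGFAC-KO chow replicate 4, with median log2 differences from the other mice of 1.03 and 0.65. Haptoglobin (*Hp*), which binds free hemoglobin, was at 6129 CPM in control HF/HS replicate 7 (2467 to 4631 in the others) and 7665 CPM in HGFAC-KO chow replicate 4 (3188 to 4034). The metallothionein gene *Mt2*, whose product binds zinc, was at 184 CPM in control HF/HS replicate 7, where the median of the others was 1.93 CPM. The 10 negative acute-phase proteins, which fall in the classical response, had median differences of -0.08 and -0.03 in these mice. Markers of Kupffer cells were also high there: 11 of 11 were the highest of their group in control HF/HS replicate 7 (sum 501 CPM, group range 246 to 501) and 8 of 11 in HGFAC-KO chow replicate 4 (sum 289 CPM, group range 190 to 289). The 11 neutrophil markers summed to 11.3 CPM in control HF/HS replicate 7 (group range 3.11 to 11.3). In HGFAC-KO chow replicate 4 they summed to 4.39 CPM (group range 1.86 to 4.98). Of the 4 neutrophil markers tested, 4 were the highest of their group in the former and 1 in the latter. *Ly6g* was at 0 in all chow-fed mice. Whether those cells had a part in the levels of the members was not tested.

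Transcripts of the inducing cytokines were scarce in the liver. Interleukin-6 mRNA (*Il6*) was at most 0.171 CPM in any library, and interleukin-1 beta mRNA (*Il1b*) was at 4.99 CPM in control HF/HS replicate 7, the highest of its group. In HGFAC-KO chow replicate 4 *Il1b* was at 2.02 CPM, within the range of the other mice (1.41 to 2.21), and *Il1a* was at 2.15 CPM, under their median of 2.50. *Il6* was the highest of the group there, at 0.158 CPM (0 to 0.116 in the others), a level near 0. Of 68 tested genes of the pathway lists, edgeR with Benjamini-Hochberg adjustment called 0 between genotypes for both diets. Before adjustment, 8 of them had p under 0.05 in chow-fed mice, and 4 did in HF/HS-fed mice. DESeq2 called *Alb* and *Apom* on chow and *Alb* on HF/HS. On diet, edgeR called 2 of the 68 in controls, beside 10.5% of all genes, and 6 in HGFAC-KO mice, beside 5.89%. On HF/HS in controls, the interleukin-1 co-receptor gene *Il1rap* rose by 0.36 on the log2 scale (edgeR Benjamini-Hochberg adjusted p = 0.000989), 1 of 10 receptor and kinase genes, and the glucocorticoid target *Tat* fell by 0.51 (adjusted p = 0.048), 1 of 6 such targets. In HGFAC-KO mice, *Il1r1* (0.63), *Il6st*, the shared signal-transducing receptor of the interleukin-6 family (0.40), and *Il1rap* (0.30) rose, 3 of 10 (edgeR Benjamini-Hochberg adjusted p between 0.0225 and 0.0299). There the kinase gene *Pim1* rose by 0.61, 1 of 8 feedback and early target genes, *Tat* fell by 0.75, 1 of 6, and *Fetub* fell by 0.38, 1 of 10 negative acute-phase proteins (edgeR Benjamini-Hochberg adjusted p = 0.00534, 0.0121 and 0.0252). The transcription factor list (10 genes tested), the cytokine list (3 tested) and the other positive acute-phase list (21 tested) had 0 genes called by edgeR on diet in either genotype. At an unadjusted p under 0.05 they had 2, 0 and 5 genes in controls and 3, 0 and 3 in HGFAC-KO mice, and DESeq2 called 4 positive acute-phase genes in controls (*Mt1*, *Mt2*, *Saa4* and *Steap4*) and 0 genes otherwise. In controls 16 of these 21 positive acute-phase genes had a log2 fold change above 0, with a median of 0.28, against a median of 0.00 over all genes. In HGFAC-KO mice 11 of the 21 did, with a median of 0.08. Without control HF/HS replicate 7 the count in controls was 12 of 21 with a median of 0.07, and without HGFAC-KO chow replicate 4 the count in HGFAC-KO mice was 16 of 21 with a median of 0.21. The smallest p-values in controls were those of *Saa4* (1.25), *Serpina3n* (0.56) and *Steap4* (1.39), none called (edgeR Benjamini-Hochberg adjusted p = 0.073, 0.0813 and 0.115). Without HGFAC-KO chow replicate 4, *Stat3*, the factor downstream of interleukin-6, was also called on diet in HGFAC-KO mice, at 0.62 (edgeR Benjamini-Hochberg adjusted p = 0.0397). With control HF/HS replicate 7 left out, *Mt2* fell by 1.84 in controls (edgeR Benjamini-Hochberg adjusted p = 0.0394).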

How the data were processed

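RNA was taken from livers with TRI reagent, mRNA libraries were made with a stranded kit and read as paired ends, and the authors aligned the reads to GRCm38 (mm10) with HISAT2. They counted reads on genes with featureCounts (version 1.6.3 per the submitters' processing notes) and deposited raw counts per gene for all 27 mice in 1 table, without normalization. The annotation release, the strand setting and the treatment of reads shared between copies are not given in the sources used here. Nothing in the labels says that mice of a group shared a litter or cage, and the lowest chi-square per gene between libraries of a group was 17.7, so no pair of libraries matched within sampling noise.

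Rows without a gene name (3886 of 27179, between 4.13% and 12.1% of a library) were left out, and 89 symbols on more than 1 row were summed. CPM used TMM library sizes, and log2 CPM for spread and correlation used a prior count of 2. Fits were made over all genes with edgeR 4.0.16 in R 4.3.3 (TMM, filterByExpr with a minimum count of 10 and total of 15, robust quasi-likelihood test, Benjamini-Hochberg adjustment, threshold 0.05). Each comparison of groups used its own mice, and the interaction used all 27. The study names the BioJupies server and no test. The members, the gene lists and the cell markers were chosen with earlier results of these data known. Named genes are the members, *Hgfac*, the genes of a list that were called or had the 3 smallest p, and the 10 genes most and 5 least like the members' score, of which 1 is not reported here. *Hp*, *Mt2*, *Il6*, *Il1b* and *Ly6g* were otherwise named after their values were seen. The lists were other positive and negative acute-phase proteins, cytokines, their receptors and kinases, transcription factors, feedback inhibitors and early targets, glucocorticoid targets, and markers of 9 cell types. Alternatives were DESeq2 1.42.0, which replaces outlying counts in groups of 7, upper-quartile scaling, no filter, 1 fit of all mice, the replicate number as a block, summed copies and leaving out each mouse. The fits were tested on counts simulated with the same dispersion for all genes and no outlying mice. At a log2 change of 0.5 they recovered 30 to 38 of 67 changed genes, with 8 to 12 false calls per comparison. Because of that setting, the simulation cannot show how the fits handle genes with single high mice, such as *Saa1*. Leaving out both high libraries together, and a fit of the mice with shared numbers without the block, were chosen after seeing the data. A direction was read only where both values were at least 0.05 from 0 on the log2 scale.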

Additional observations from a re-analysis of the deposited data

Results flagged for a closer look

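For each of the 10 genes in each of the 4 groups, the gap between the most distant mouse and its nearest neighbour was divided by the range of the group and set against Dixon's 95% critical value. The ratio was taken on CPM without log transformation. Of 40 such sets, 23 passed. The critical value assumes normally distributed levels, and the members were chosen with their spread between mice in view. The count is therefore a description, and no chance rate or share over all genes is set beside it. The sets are not independent, because a few mice account for all of them.

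Control HF/HS replicate 7 stood apart for 10 genes, with ratios of 0.910 for *Saa1*, 0.963 for *Saa2*, 0.874 for *Saa3* and 0.923 for *Lcn2*. For the orosomucoid genes the ratios were 0.696 (*Orm1*), 0.882 (*Orm2*) and 0.841 (*Orm3*), and for fibrinogen 0.765 (*Fga*), 0.782 (*Fgb*) and 0.708 (*Fgg*). HGFAC-KO chow replicate 4 stood apart for 6 genes: *Saa1* at 0.978, *Saa2* at 0.987, *Saa3* at 0.939, *Lcn2* at 0.925, *Orm2* at 0.828 and *Fgg* at 0.630. HGFAC-KO HF/HS replicate 2 stood apart for 4 genes, with 0.874 for *Saa1*, 0.844 for *Saa2*, 0.919 for *Lcn2* and 0.710 for *Orm2*. Control chow replicate 3 stood apart for 3 genes, with 0.928 for *Saa1*, 0.942 for *Saa2* and 0.893 for *Lcn2*. In each of the 23 sets the mouse was the highest of its group.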

How the results depend on the processing

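Of 1115 recomputed log2 fold changes, 970 kept their sign and side of the threshold, 82 changed sign with 1 or both values within 0.05 of 0, 38 reversed, 14 lost the threshold and 11 gained it.

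Leaving out each mouse in turn, the number of members called on diet in controls ran from 0 to 5, beside 7.19% to 13.1% of all genes. The log2 fold changes that changed call, or changed sign with both values beyond 0.05, ran as follows. Between genotypes on chow they ran from -0.89 to 2.81 for *Saa1*, -1.13 to 3.65 for *Saa2*, -0.30 to 2.60 for *Lcn2* and -0.55 to 0.31 for *Orm2*. On HF/HS they ran from -2.76 to 0.20 for *Saa1*, -3.37 to 0.26 for *Saa2*, -0.50 to 0.32 for *Saa3*, -2.41 to 0.49 for *Lcn2* and -0.92 to 1.02 for *Orm2*. On diet in controls they ran from -0.49 to 2.63 for *Saa1*, -0.89 to 3.26 for *Saa2*, -0.61 to 2.14 for *Lcn2*, -1.14 to -0.32 for *Saa3*, -0.60 to -0.18 for *Orm1*, -1.49 to -0.14 for *Orm2*, -1.57 to -0.64 for *Orm3* and 0.25 to 0.44 for *Fgb*. On diet in HGFAC-KO mice they ran from -2.94 to 0.61 for *Saa1*, -3.76 to 0.51 for *Saa2*, -2.86 to 0.19 for *Lcn2*, -1.39 to 0.090 for *Orm2* and -1.68 to -1.05 for *Orm3*. In the interaction they ran from -0.41 to 0.41 for *Saa3*, -1.06 to 0.88 for *Orm2* and -0.86 to 0.12 for *Orm3*. Nearer 0, *Orm1* ran from -0.17 to 0.09 on chow, -0.27 to 0.30 on HF/HS and -0.27 to 0.30 in the interaction. *Saa3* and *Orm3* ran from -0.67 to 0.041 and -0.59 to 0.028 on chow. *Fga* ran from -0.0015 to 0.087 on chow, -0.06 to 0.21 on HF/HS and -0.11 to 0.16 in the interaction, *Fgb* from -0.035 to 0.15 and -0.088 to 0.10 in the latter 2, and *Fgg* from -0.02 to 0.073, -0.048 to 0.18 and -0.08 to 0.15 in all 3. The median SD over the members ran from 0.22 to 0.45 in controls on chow, 0.37 to 1.03 in HGFAC-KO mice on chow, 0.46 to 1.11 in controls on HF/HS and 0.37 to 0.69 in HGFAC-KO mice on HF/HS.

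DESeq2, which replaces outlying counts, gave 0.21 for *Saa1* and 0.50 for *Lcn2* between genotypes on HF/HS, and -0.50 and -0.60 on diet in controls, where it called 3 members (*Fga*, *Fgb* and *Orm2*) beside 14.3% of genes. On diet in controls, 0 members were called with no filter, beside 6.75% of genes, and 3 in the fit of all 27 mice (*Fga*, *Fgb* and *Fgg*), beside 10.2%. On diet in HGFAC-KO mice that fit called 1, *Fgb*, beside 8.35%. The cause was not tested. Without both high libraries the interaction reversed to 1.09 (*Saa1*), 1.40 (*Saa2*), 1.00 (*Saa3*), 0.80 (*Lcn2*), 1.58 (*Orm2*) and 0.52 (*Orm3*), and the median co-variation was 0.36.

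Correlations of same-numbered deviations ran from -0.25 to 0.37. They were over 0.1 for 4 of 6 numbers between HGFAC-KO chow and HGFAC-KO HF/HS. Between control HF/HS and HGFAC-KO HF/HS this held for 3 of 7, and between any other groups for at most 1. Differently numbered mice were not compared, so these values cannot show whether replicate numbers pair the mice. With the number as a block, members called were 0 between genotypes on either diet and 0 in the interaction, 0 on diet in controls, beside 5.72% of genes, and 4 on diet in HGFAC-KO mice (*Fga*, *Fgb*, *Fgg* and *Orm3*), beside 4.44%. Fits with the block hold only mice whose number occurs in every group, so they used 12 of 13 mice on chow and on diet in HGFAC-KO mice and 24 of 27 in the interaction, without control HF/HS replicate 7. With the block *Orm2* on chow was -0.32 and the interactions were 0.40 (*Saa3*), 1.08 (*Orm2*) and 0.31 (*Orm3*), all reversed. The same mice without the block, a fit added after seeing the data, gave reversed interactions of 0.33, 1.08 and 0.25, so these reversals came with the mice left out. *Orm2* on chow was 0.046 there. That fit called *Fga*, *Fgb* and *Fgg* on diet in HGFAC-KO mice, beside 4.35% of genes. Genes near 1 CPM, such as *Orm3*, have large counting error at this depth.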

Other observations

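A score of the members, the mean of their standardized deviations from the group means, was 3.09 in control HF/HS replicate 7, 1.95 in HGFAC-KO chow replicate 4, 0.95 in HGFAC-KO HF/HS replicate 2 and 0.86 in control chow replicate 3. Over the 27 mice and 11831 genes with a mean of at least 1 CPM, genes outside the members whose deviations ranked most like the score included *Slc37a1* (Spearman's rho 0.82), *Saa4* (0.81), *Egfr* (0.80), *Ptp4a1* (0.77), *Snx10* (0.77), *Stap2* (0.76), *B3galt1* (0.75), *Steap4* (0.75) and *Tnfrsf1a* (0.75). *Saa4* is the constitutive serum amyloid A gene, *Egfr* the epidermal growth factor receptor and *Tnfrsf1a* a receptor of tumor necrosis factor. *Egfr* was at 1083 CPM in control HF/HS replicate 7 and 406 CPM in HGFAC-KO chow replicate 4, where the group medians were 418 and 340 CPM. Without both mice its rho was 0.82, while that of *Saa4* was 0.65. The genes most opposed to the score were *Adra2b* (-0.84), *Emp2* (-0.78), *Bambi* (-0.76), *Gas1* (-0.76) and *Sgsm2* (-0.73). *Adra2b*, an adrenergic receptor gene, was at 2.37 and 2.55 CPM in the 2 high mice, against group medians of 6.81 and 6.60 CPM. These correlations were picked from all genes for their size and are given as a description.

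Markers of other cell types were called in small numbers on diet. In controls, where 10.5% of all genes were called, *S100a8* was the 1 of 3 tested neutrophil markers called, *Cd4* the 1 of 4 T cell markers, *Apoa1* the 1 of 6 hepatocyte markers and *Lrat*, lower on HF/HS, the 1 of 5 hepatic stellate cell markers. In HGFAC-KO mice, where 5.89% of all genes were called, *Cd4* and *Cd3d* were called (2 of 5), with *Tdo2* lower (1 of 6 hepatocyte markers) and *Stab2* higher (1 of 5 sinusoidal endothelium markers). Of the 3 tested neutrophil markers there, edgeR called 0, 3 had an unadjusted p under 0.05 and DESeq2 called 1. The median log2 fold change of those markers was 0.98, against 1.32 in controls. Markers of B cells, cholangiocytes and adipocytes had 0 called by edgeR in these comparisons, 0 at an unadjusted p under 0.05 and 0 called by DESeq2, and *Lep* was at 0 in all mice.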
